A study of Capra hircus with 2 samples.

Results

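Integrins are receptors of 2 chains, alpha and beta, that tie a cell to the matrix around it, and 7 of their chains were followed through the cells of cashmere goat skin: ITGA2, ITGA3, ITGA6, ITGAV, ITGB1, ITGB4 and ITGB6. They were listed by symbol, with earlier results of these data known. All 7 were found among the 27137 features of the count matrix, which holds 25 integrin chains in all. In skin, ITGA6 and ITGB4 form the receptor of the hemidesmosome, the rivet that fixes basal keratinocytes to the laminin of the basement membrane. ITGB1 pairs with many alpha chains, among them ITGA3 for laminin and ITGA2 for collagen, and is the shared beta chain of the focal adhesions. ITGAV with ITGB6 makes an epithelial receptor that binds fibronectin and frees latent TGF-beta. Keratinocytes are known to lose most of these chains when they leave the basement membrane, and blood vessels, nerves and tumours also carry the ITGA6 and ITGB4 pair.

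The skin came from the scapular region of 2 healthy Liaoning cashmere goats in the growth phase of the secondary hair follicle, and single cells were captured with the 10x 3′ kit. The coarse fibre type (CT-LCG) and the fine fibre type (FT-LCG) had 1 goat and 1 library each, and neither received a treatment that the labels name. The age of the goats was not given in the sources used here. Fibre type, animal and library therefore cannot be told apart, no test was possible between the types, and every interval below covers counting error only.

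The authors kept 3443 cells of CT-LCG, with a median of 2314 UMIs (unique molecular identifiers, 1 per captured transcript), and 9608 cells of FT-LCG, with a median of 6121.5 UMIs, and 11 cell barcodes occurred in both. A level is the number of UMIs of a gene per 10000 UMIs summed over a group of cells, with its exact Poisson 95% interval. The cells were clustered again without the integrins and their pathway genes, and clusters were named from lists of markers. Clusters 3 and 9 were basal-like, cluster 5 outer root sheath-like (its list joins the outer root sheath and the bulge), cluster 2 suprabasal-like, cluster 10 fibroblast-like and cluster 11 endothelial-like. The same markers had given the names, so their levels describe the compartments and are no separate support for the names. Among these 5 compartments, all 11 fibroblast, all 11 endothelial and all 7 suprabasal markers were highest in their own compartment in both libraries. Granular-like cells were not among the 5. The suprabasal markers summed to 1252 for CT-LCG and 994 for FT-LCG in them, against 1028 and 822 in suprabasal-like cells. Among the markers of the outer root sheath and bulge, 7 of 11 were highest there in CT-LCG, where LHX2 was at 0, and 10 of 11 in FT-LCG, and 4 of 6 basal markers were highest in the basal-like cells of each library.

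Over all kept cells ITGB1 was the most often captured of the 7, with 12975 UMIs in 42.8% of cells, and ITGB6 the least, with 611 UMIs in 3.62% of cells. ITGA6 had 9014 UMIs, ITGB4 7346, ITGAV 5489, ITGA3 1707 and ITGA2 1562. The counts of ITGA2, ITGA3 and ITGB6 left wide intervals in the small dermal groups, which held 104 and 127 fibroblast-like cells and 57 and 158 endothelial-like cells in CT-LCG and FT-LCG.

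**Figure D1:**
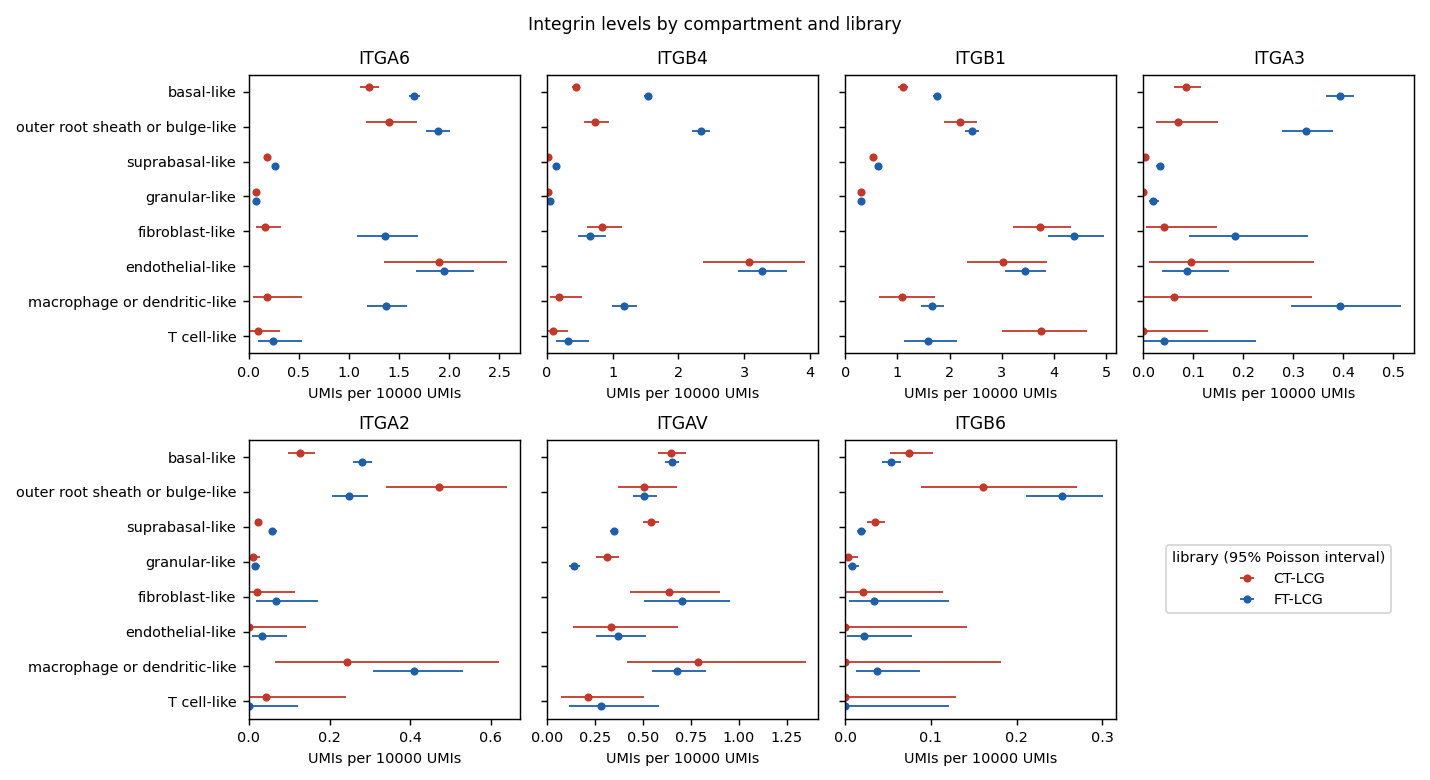
Level of each integrin (x axis, UMIs per 10000 UMIs, a scale of its own for each gene) in 8 groups of cells (y axis), with CT-LCG in red, FT-LCG in blue and bars for the exact Poisson 95% interval. ITGA6 and ITGB4 were highest in the endothelial-like cells and ITGB1 in the fibroblast-like cells on the mean of the libraries, whereas suprabasal-like and granular-like cells lay near 0 for ITGB4 and ITGA3.

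ITGA6, the alpha chain of the hemidesmosome, was carried by basal-like, outer root sheath-like and endothelial-like cells in both libraries. In basal-like cells its level was 1.20 for CT-LCG (interval 1.11 to 1.30) and 1.65 for FT-LCG (1.60 to 1.71). In outer root sheath-like cells it was 1.40 (1.17 to 1.68) and 1.89 (1.77 to 2.01), and in endothelial-like cells 1.90 (1.35 to 2.58) and 1.95 (1.67 to 2.25). On the mean of the libraries the order was endothelial-like, outer root sheath-like, basal-like and then cycling cells, the last at 1.04 and 1.30. Neighbours at the top of this order had overlapping intervals in CT-LCG. The endothelial-like and outer root sheath-like intervals also overlapped in FT-LCG. Suprabasal-like cells stood far below, at 0.176 (0.154 to 0.201) and 0.261 (0.242 to 0.282), and granular-like cells were lowest at 0.0704 and 0.0716.

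ITGB4, the beta chain that pairs only with ITGA6, had its highest level in the endothelial-like cells of each library. That level was 3.08 for CT-LCG (interval 2.38 to 3.93, 65 UMIs) and 3.27 for FT-LCG (2.91 to 3.66, 302 UMIs). The outer root sheath-like cells followed with 0.736 (0.567 to 0.940) and 2.34 (2.21 to 2.48). Basal-like cells had 0.441 (0.384 to 0.504) and 1.53 (1.48 to 1.59), and fibroblast-like cells 0.841 (0.604 to 1.14) and 0.654 (0.465 to 0.894). The intervals of the endothelial-like cells did not reach those of any of the other 7 groups drawn, in either library. Suprabasal-like cells were at 0.00851 in CT-LCG, from 11 UMIs, and at 0.132 in FT-LCG.

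Shares of cells with an ITGB4 UMI were also compared after each cell was thinned to 1000 UMIs. Among endothelial-like cells, 27.1% of 48 cells for CT-LCG (Clopper-Pearson interval 15.3 to 41.8) and 37.1% of 140 cells for FT-LCG (29.1 to 45.7) had an ITGB4 UMI. Among basal-like cells the thinned share was 3.70% for CT-LCG (2.17 to 5.85) and 15.7% for FT-LCG (14.2 to 17.4). Granular-like cells gave a low share, with 0 of 151 cells in CT-LCG, which allows up to 1.99%, and 0.217% of 460 cells in FT-LCG. T cell-like cells had 0 of 53 and 0 of 47. Other groups were not as low. Macrophage-like or dendritic-like cells had 0 of 30 in CT-LCG, which allows up to 10.0%, and 9.41% of 85 in FT-LCG (4.15 to 17.7), which overlapped the basal-like interval. Fibroblast-like cells had 9.09% for CT-LCG (4.24 to 16.6) and 6.19% for FT-LCG (2.53 to 12.3). Before thinning the shares were 42.1% and 69.0% in endothelial-like cells, whose median depth was 1788 UMIs for CT-LCG and 2699 for FT-LCG, and 1.99% and 5.19% in granular-like cells, at 21593 and 14380 UMIs. Thinning left out 9 and 18 endothelial-like cells that were shallower.

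Both chains of the hemidesmosome receptor were captured in the same cells. Of the thinned FT-LCG basal-like cells, 64 had a UMI of each, and ITGA6 was found in 19.6% of the cells with ITGB4 and in 15.1% of those without. The same pair of shares was 28.0% and 18.8% in FT-LCG outer root sheath-like cells and 17.3% and 11.4% in FT-LCG endothelial-like cells. There 37 outer root sheath-like and 9 endothelial-like cells had both. Whether the chains met in the same cells more often than by chance was not tested. In CT-LCG only 5 basal-like, 5 outer root sheath-like and 5 endothelial-like thinned cells had both.

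ITGB1, the beta chain shared by most matrix receptors, was highest in fibroblast-like and endothelial-like cells on the mean of the libraries. Its level in fibroblast-like cells was 3.73 for CT-LCG (interval 3.21 to 4.32) and 4.39 for FT-LCG (3.88 to 4.96), and in endothelial-like cells 3.03 (2.34 to 3.87) and 3.44 (3.07 to 3.84). Outer root sheath-like cells had 2.20 (1.90 to 2.53) and 2.43 (2.29 to 2.57), and basal-like cells 1.11 (1.01 to 1.20) and 1.75 (1.69 to 1.81). Fibroblast-like and endothelial-like intervals overlapped in CT-LCG but not in FT-LCG, whereas basal-like cells lay below both in each library. T cell-like cells were split, with 3.75 (3.01 to 4.63) in CT-LCG and 1.58 (1.12 to 2.15) in FT-LCG. Its lowest level, in granular-like cells, was 0.311 and 0.309.

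ITGA3, a laminin-binding partner of ITGB1, was sparse. It had 0.0861 in the basal-like cells of CT-LCG, from 42 UMIs, and 0.393 in those of FT-LCG, from 752 UMIs. Outer root sheath-like cells had 0.0690 and 0.325. Suprabasal-like cells had 0.00387, from 5 UMIs, and 0.0328. Macrophage-like or dendritic-like cells had 0.0605, from 1 UMI, and 0.394, from 53 UMIs. The basal keratinocyte markers summed to 47.1 for CT-LCG and 515 for FT-LCG in them, and the part of those transcripts was not tested. Endothelial-like cells held only 2 and 8 UMIs, and fibroblast-like cells 2 and 11, so their place in CT-LCG, where the endothelial-like level was 0.0948 with an interval of 0.0115 to 0.342, could not be separated from the basal-like one.

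ITGA2, the collagen-binding partner of ITGB1, was highest in outer root sheath-like and basal-like cells among the 5 compartments compared. Outer root sheath-like cells had 0.472 for CT-LCG (interval 0.339 to 0.640) and 0.247 for FT-LCG (0.206 to 0.295), and basal-like cells 0.127 (0.0975 to 0.163) and 0.280 (0.257 to 0.305). The order of these 2 compartments therefore turned between the libraries, with overlapping intervals in FT-LCG. Suprabasal-like cells had 0.0224 and 0.0584, close to the fibroblast-like levels of 0.0205 and 0.0671. Fibroblast-like cells held 1 and 4 UMIs of ITGA2, and endothelial-like cells 0 and 3, where 0 of 211033 UMIs allows a level of up to 0.142. Macrophage-like or dendritic-like cells reached 0.242 and 0.409, and the summed level of the basal keratinocyte markers in these cells was 47.1 for CT-LCG against 515 for FT-LCG. The part of those keratinocyte transcripts in the result was not tested. In the unranked cluster 14 of CT-LCG the ITGA2 level was 2.75.

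ITGAV, which pairs with several beta chains, had like levels in basal-like and fibroblast-like cells. Its level was 0.648 (0.578 to 0.723) and 0.651 (0.616 to 0.688) in basal-like cells, 0.636 (0.432 to 0.903) and 0.704 (0.508 to 0.952) in fibroblast-like cells, and 0.506 in the outer root sheath-like cells of each library. Endothelial-like cells had 0.332 and 0.368, with intervals that overlapped the outer root sheath-like ones. The highest value in any named or unnamed ranked cluster was 2.21 in cluster 4 of CT-LCG, which stayed unnamed and was led by the ion channel gene TRPV3, against 0.608 there in FT-LCG.

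ITGB6, the epithelial partner of ITGAV, was highest in the outer root sheath-like cells, at 0.161 (0.0881 to 0.270) from 14 UMIs in CT-LCG and 0.253 (0.211 to 0.301) from 127 UMIs in FT-LCG. Basal-like cells had 0.0738 (0.0517 to 0.102) and 0.0533 (0.0434 to 0.0647). The outer root sheath-like and basal-like intervals overlapped for CT-LCG and were apart for FT-LCG. Fibroblast-like cells held 1 and 2 UMIs, endothelial-like cells 0 and 2, and T cell-like cells none in either library.

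Of the comparisons made, the one between basal-like and suprabasal-like cells gave the most called integrins. A gene was called when its level differed at least 2-fold in the same direction in both libraries and it had at least 20 UMIs over the 2 groups in each. Of the 7 integrins, 6 were called higher in basal-like cells, all but ITGAV, and 0 lower, whereas over 11348 genes 6.13% were called higher and 4.75% lower. The median log2 ratio of the 7, averaged over the libraries, was 2.38, and that of all genes was 0.08. In CT-LCG, ITGA3 with 42 against 5 UMIs and ITGB4 with 215 against 11 had enough UMIs only through the basal-like cells. Their calls therefore add no support to the difference from all genes. ITGB4 differed most, with a ratio of 51.8 for CT-LCG (exact interval 28.4 to 105) and 11.6 for FT-LCG (10.4 to 13.0). ITGA3 followed with 22.3 (8.82 to 72.1) and 12.0 (9.55 to 15.2). ITGA6 had ratios of 6.83 (5.85 to 7.99) and 6.33 (5.82 to 6.89), which were nearly equal in the libraries.

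The other 3 called members differed less. ITGA2 had ratios of 5.67 (3.59 to 9.14) and 4.80 (4.00 to 5.80). ITGB1 had ratios of 2.09 and 2.76, and ITGB6 of 2.12 and 2.87, so that both stood just past the fold in CT-LCG. ITGAV had 1.19 and 1.87. When each cell was thinned to 1000 UMIs, which leaves fewer counts, 3 of the 7 were called.

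**Figure D2:**
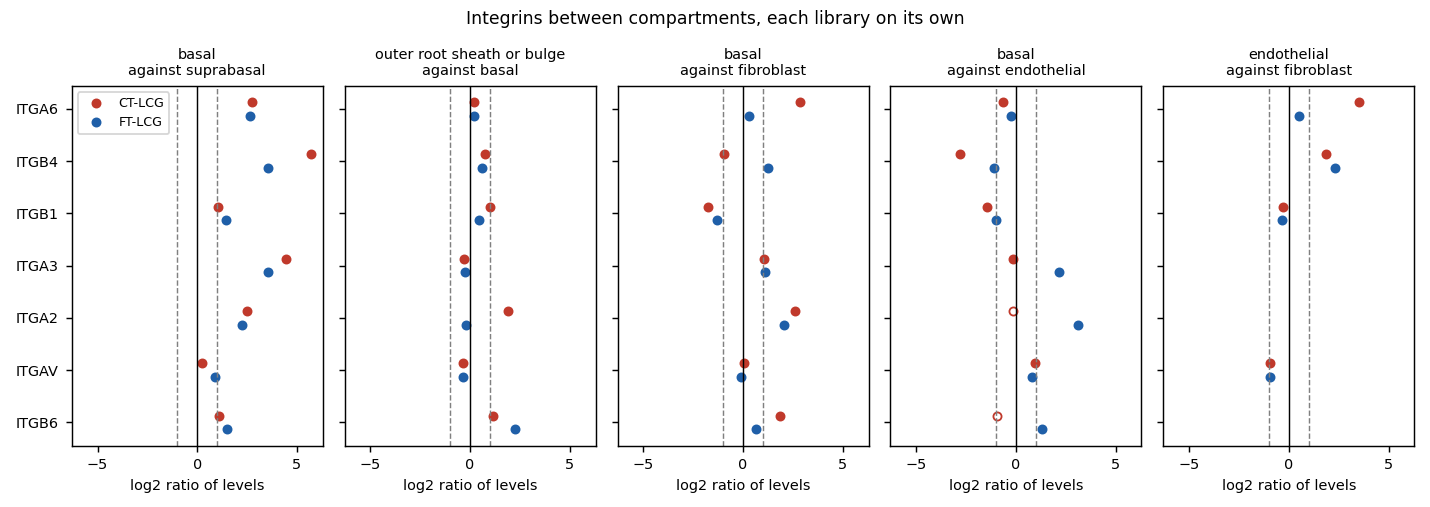
Log2 ratio of the levels of each integrin (y axis) in 5 comparisons of compartments, with CT-LCG in red and FT-LCG in blue, dashed lines at a 2-fold difference, and open points where a count of 0 was set to 3 counts. Against suprabasal-like cells, 6 of 7 integrins passed the upper dashed line in both libraries, whereas ITGB4 lay on opposite sides of 0 in the libraries when basal-like and fibroblast-like cells were compared.

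The partner genes of the junction were compared between basal-like and suprabasal-like cells in the same way, beside the 6.13% of all genes called higher. Of the 4 hemidesmosome genes, 2 were called higher and 0 lower. CD151, the tetraspanin that binds laminin receptors, had nearly equal levels, 1.21 and 1.74 in basal-like and 1.12 and 1.61 in suprabasal-like cells. COL17A1, the transmembrane collagen of the hemidesmosome, had levels of 5.42 and 9.42 in basal-like cells and 0.230 and 1.67 in suprabasal-like cells, with ratios of 23.5 and 5.64. DST, which makes the plakin that links the hemidesmosome to keratin, had ratios of 14.8 and 6.83. Of the 17 matrix ligand genes found, 7 were called higher and 10 had too few UMIs to be called. Some of the 7, such as COL4A2 with 20 UMIs in basal-like and 4 in suprabasal-like cells of CT-LCG, had enough UMIs only through the basal-like cells, so their number supports nothing about the list. They included LAMB3, a chain of the epidermal laminin, at 19.7 and 15.1, and COL7A1, the anchoring fibril collagen, at 18.0 and 6.96. Of the focal adhesion genes 5 of 12 were higher and 0 lower, with the adaptor PXN at 15.9 and 10.3. In CT-LCG, PXN had 30 UMIs in basal-like cells and enough UMIs only through them. The number of focal adhesion genes called therefore supports nothing about that list either. Of the other integrin chains, ITGB8 was higher, with ratios of 7.29 and 3.01, and ITGA7 lower, with 0.236 and 0.281.

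Against the fibroblast-like cells, the integrins of basal-like cells did not all differ the same way. Of the 7, 2 were called higher, ITGA2 and ITGA3, and 1 lower, ITGB1, where 4.05% of 9874 genes were called higher and 15.1% lower. The ratio of ITGA2 was 6.20 for CT-LCG (interval 1.07 to 249) and 4.18 for FT-LCG (1.62 to 15.4), and that of ITGA3 was 2.10 (0.546 to 17.9) and 2.13 (1.18 to 4.28). These calls rest on 1 to 11 UMIs in the fibroblast-like cells, so ITGA2 and ITGA3 had enough UMIs only through the basal-like cells. The number of higher calls was 1 without the shallower basal-like cluster 9 and 0 after thinning. When cells were assigned by their marker UMIs in place of clusters, the log2 ratios of ITGA2 and ITGA3 turned from 2.35 and 1.08 to -0.02 and -0.0003. ITGB1 was lower at 0.296 (0.250 to 0.352) and 0.398 (0.351 to 0.453). ITGAV differed little, with ratios of 1.02 (0.703 to 1.52) and 0.925 (0.680 to 1.29).

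The hemidesmosome chains gave no call there because the libraries differed. ITGA6 was 7.33 times as high in the basal-like as in the fibroblast-like cells of CT-LCG (3.70 to 17.1), but only 1.22 times in FT-LCG (0.977 to 1.54). Its fibroblast-like level was 0.164 (0.0709 to 0.323) from 8 UMIs in CT-LCG and 1.36 (1.08 to 1.69) from 81 UMIs in FT-LCG. Of these 81 UMIs, 15 came from a single cell and 42 from the 5 cells with the most. The FT-LCG cells without a UMI of COL1A1, COL1A2 or COL3A1, 43 of 127, had a level of 2.27, and the 84 cells with one had 0.857. The summed level of the basal keratinocyte markers in fibroblast-like cells was 22.1 for CT-LCG and 112 for FT-LCG, against 418 and 712 in basal-like cells. Among the 84 FT-LCG cells with at most 1% of their UMIs from KRT5, KRT14, KRT1 and KRT10, the ITGA6 level was 1.30 (0.978 to 1.68). The part of keratinocyte transcripts in the result was not tested.

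ITGB4 ran in opposite directions, with a basal-like to fibroblast-like ratio of 0.524 for CT-LCG (0.374 to 0.751) and 2.34 for FT-LCG (1.71 to 3.30). Its fibroblast-like levels overlapped between the libraries, whereas its basal-like levels did not.

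The matrix and adhesion genes around these receptors were counted against the 15.1% of all genes called lower in basal-like than in fibroblast-like cells and the 4.05% called higher. Of 11 ligand genes counted, 7 were called lower and 0 higher. FN1, fibronectin, had levels of 0.00615 and 0.00261 in basal-like cells against 0.903 and 1.49, and LAMA2, a laminin chain of the dermis and muscle, had 0 and 1 UMIs against 59 and 23. Both had enough UMIs only through the fibroblast-like cells, so the number of ligand genes called supports nothing about the list. COL4A1, the basement membrane collagen, had ratios of 0.0173 and 0.131. Among the other integrin chains, ITGA1, a collagen receptor, had 0 and 1 UMIs in basal-like against 25 and 25 in fibroblast-like cells. It too had enough UMIs only through the fibroblast-like cells. ITGA5, the fibronectin receptor, had ratios of 0.0294 and 0.144, and ITGB5, another partner of ITGAV, had 0.229 and 0.341. The kindlins, which switch integrins on, were divided. FERMT1 was higher in basal-like cells, at 16.0 and 2.92, and FERMT2 lower, at 0.217 and 0.227. In CT-LCG, FERMT1 had 321 against 2 UMIs and enough UMIs only through the basal-like cells. Of the 7 genes of latent TGF-beta, 4 were lower, with LTBP3 at 0.0642 and 0.104.

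Against the endothelial-like cells, ITGB4 was the called member. It was lower in basal-like cells, with ratios of 0.143 for CT-LCG (interval 0.108 to 0.192) and 0.469 for FT-LCG (0.417 to 0.530), and 10.9% of 9450 genes were called lower. None of the 7 was called higher, with a background of 4.31%. In CT-LCG a count of 0 in endothelial-like cells was set to 3 counts, a level of 0.142. ITGA2 and ITGB6 had 0 UMIs there, and their basal-like levels were 0.127 and 0.0738, so neither could be called higher. ITGA3 had 2 UMIs in the endothelial-like cells of CT-LCG, a level of 0.0948 against 0.0861 in basal-like cells. The ITGB4 ratio of FT-LCG lies near the fold, and no call was left when the cells were clustered at a higher resolution. ITGA6 had ratios of 0.635 (0.461 to 0.898) and 0.849 (0.731 to 0.992), both below 1 without reaching the fold. ITGB1 had 0.364 and 0.508, the second just short of the fold. ITGA3 had 4.54 in FT-LCG (2.29 to 10.5) and 0.909 in CT-LCG (0.236 to 7.75), and ITGA2 8.64 in FT-LCG (2.94 to 42.0), while against the 0 UMIs of CT-LCG no ratio can be given.

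The endothelial-like cells carried keratin transcripts, with summed basal markers at 60.2 and 82.5 and suprabasal markers at 259.7 and 62.7. Among the endothelial-like cells with at most 1% of UMIs from the 4 keratins, 24 for CT-LCG and 120 for FT-LCG, ITGB4 stood at 3.38 (2.47 to 4.51) and 3.32 (2.92 to 3.76) and ITGA6 at 1.76 and 1.97. This keratin limit was chosen after seeing the data, and the part of keratinocyte transcripts in these levels was not tested.

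Compared with fibroblast-like cells, the endothelial-like cells had ITGB4 at 3.66 times (2.44 to 5.55) and 5.00 times (3.57 to 7.17) the level. It was 1 of 4 integrins with enough UMIs to be called, and 5.61% of 4809 genes were called higher and 8.50% lower. ITGA2, ITGA3 and ITGB6 had too few UMIs in these cells. ITGA6 had ratios of 11.5 (5.33 to 28.6) and 1.43 (1.10 to 1.89), set against the unequal fibroblast-like levels given above. ITGAV was lower without reaching the fold, at 0.521 and 0.522, and ITGB1 had 0.812 and 0.783. Among the other chains ITGA5 was higher in endothelial-like cells, at 3.12 and 6.05, and ITGB5 lower, at 0.157 and 0.0745. ITGB5 had 4 and 6 UMIs in endothelial-like cells against 59 and 52, so it had enough UMIs only through the fibroblast-like cells. ITGA5, with 75 against 8 in FT-LCG, had enough there only through the endothelial-like cells.

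Some partner genes differed between basal-like and endothelial-like cells, where 4.31% of all genes were called higher in basal-like cells and 10.9% lower. Basal-like cells had more COL17A1, with ratios of 14.3 and 9.90, and more of the epidermal laminin chain LAMA3, at 10.9 and 5.31, the first of these from 1 endothelial-like UMI. They had less CD151, at 0.464 and 0.353, less COL4A1, at 0.0157 and 0.0773, and less HSPG2, perlecan, at 0.0228 and 0.0394. In CT-LCG, COL17A1 had 2645 against 8 UMIs and LAMA3 253 against 1. Both had enough UMIs there only through the basal-like cells, so their calls support nothing about the lists. PLEC, the plectin that binds the tail of ITGB4, was not called in this comparison.

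**Figure D3:**
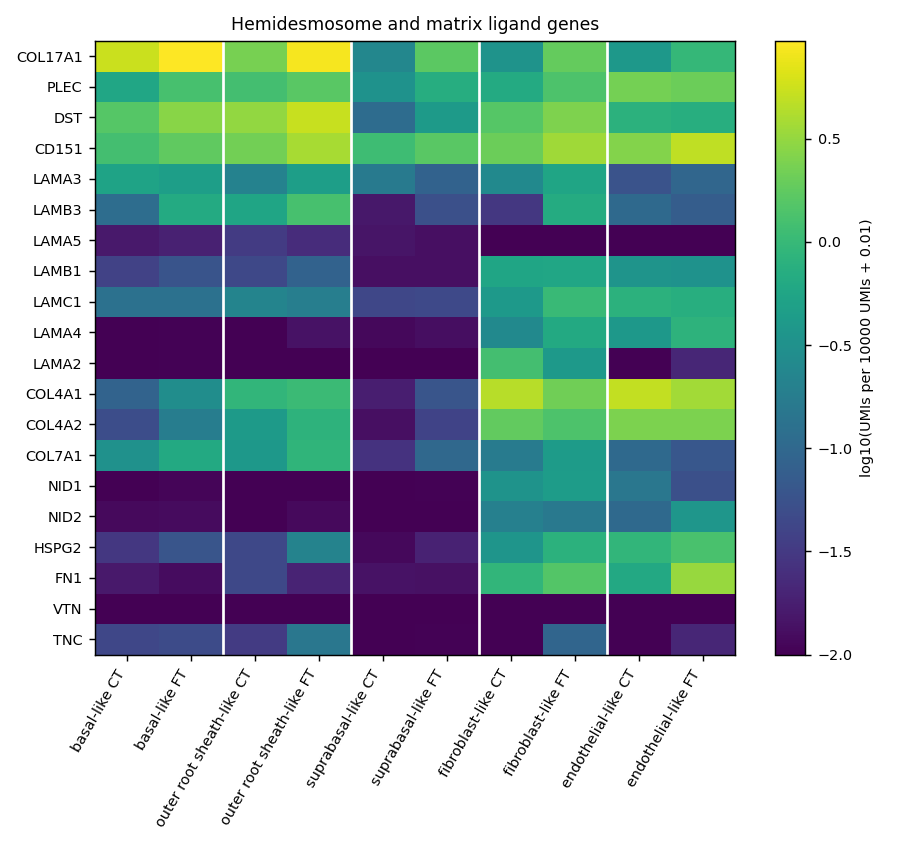
Level of the 4 hemidesmosome genes and of the matrix ligand genes found, all but 1 of 17 (rows), in 5 compartments and both libraries (columns), on a colour scale of log10(UMIs per 10000 UMIs + 0.01). COL17A1 was brightest in basal-like and outer root sheath-like cells, and COL4A1 and COL4A2 in fibroblast-like and endothelial-like cells.

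Between the outer root sheath-like and the basal-like cells, ITGB6 was the called member. It was higher in outer root sheath-like than in basal-like cells, with ratios of 2.18 for CT-LCG (interval 1.09 to 4.15) and 4.75 for FT-LCG (3.63 to 6.23), where 9.34% of 9888 genes were called higher. None of the 7 was lower, with a background of 2.71%. The CT-LCG value rests on 14 UMIs, and the call was lost with another random seed, without the library correction and in 4 further settings. ITGB4 had ratios of 1.67 (1.24 to 2.22) and 1.53 (1.42 to 1.63) and ITGB1 of 1.99 (1.68 to 2.35) and 1.39 (1.30 to 1.48), both above 1 and short of the fold. ITGA6 had 1.17 and 1.14, ITGA3 0.802 and 0.827, and ITGAV 0.781 and 0.777, values that were close in the libraries. ITGA2 had 3.71 for CT-LCG (2.44 to 5.60) and 0.881 for FT-LCG (0.719 to 1.07).

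Genes of latent TGF-beta, on which the ITGAV and ITGB6 receptor acts, were among those higher in outer root sheath-like cells, 3 of 7 with 0 lower. Over all genes 9.34% were called higher and 2.71% lower. A link between these genes and ITGB6 was not tested. LTBP3 and LTBP1, which store latent TGF-beta in the matrix, had ratios of 4.57 and 7.08 and of 3.39 and 4.60. TGFB3, 1 of the ligands, had 2.24 and 3.46. The basement membrane collagens were higher too, COL4A1 at 11.4 and 3.73 and COL4A2 at 9.82 and 4.86. None of the 4 hemidesmosome genes was called.

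The 2 libraries were then set side by side within the basal-like cells. Of the 7 integrins, 3 were at least 2-fold lower in CT-LCG than in FT-LCG, ITGA2, ITGA3 and ITGB4, and 0 were higher, where 9.57% of 12207 genes were lower and 8.63% higher. The ratio of CT-LCG over FT-LCG was 0.219 for ITGA3 (interval 0.157 to 0.299), 0.288 for ITGB4 (0.249 to 0.330) and 0.453 for ITGA2 (0.343 to 0.590). ITGB1 had 0.632 and ITGA6 0.728, both below 1 with intervals that did not reach it. ITGAV had 0.995 (0.877 to 1.13) and ITGB6 1.39 (0.920 to 2.04). Without the library correction 1 of the 7 was called lower.

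The basal-like cells of the libraries also differed in their keratins. The summed level of the suprabasal markers in them was 240.0 for CT-LCG and 56.7 for FT-LCG, and that of the basal markers 418 and 712. Their part in the result was not tested. In the outer root sheath-like cells, where the suprabasal markers summed to 67.1 and 39.1, ITGB4 had a CT-LCG over FT-LCG ratio of 0.315 (0.241 to 0.405) and ITGA3 of 0.213 (0.0769 to 0.473). ITGA2 went the other way in these cells, at 1.91 (1.31 to 2.74).

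ITGB4 was lower in CT-LCG in most epithelial clusters but not in the vessels. Its FT-LCG over CT-LCG interval lay above 1 in 10 of 12 clusters with at least 20 UMIs. Among these was cluster 12, the macrophage-like or dendritic-like cells. The interval included 1 in the other 2, the fibroblast-like cells at 0.777 (0.488 to 1.24) and the endothelial-like cells at 1.06 (0.809 to 1.41). The ratio was 3.62 (3.13 to 4.20) in basal-like cluster 3, 2.05 (1.27 to 3.51) in the shallower basal-like cluster 9, 3.17 (2.47 to 4.15) in outer root sheath-like cells and 15.5 (8.58 to 31.4) in suprabasal-like cells. In the suprabasal-like cells the basal markers summed to 129.7 for CT-LCG and 287 for FT-LCG, and their part in the ratio was not tested. ITGA3 lay above 1 in 7 of 9 clusters and ITGA6 in 7 of 12, with 1 below, whereas ITGAV lay above 1 in 0 of 12 and below it in 3. ITGB1 had an interval that included 1 in 9 of 13 clusters, with 3 above and 1 below. ITGB6 included it in 6 of 7, with 1 below, and ITGA2 in 5 of 9, with 3 above and 1 below.

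**Figure D4:**
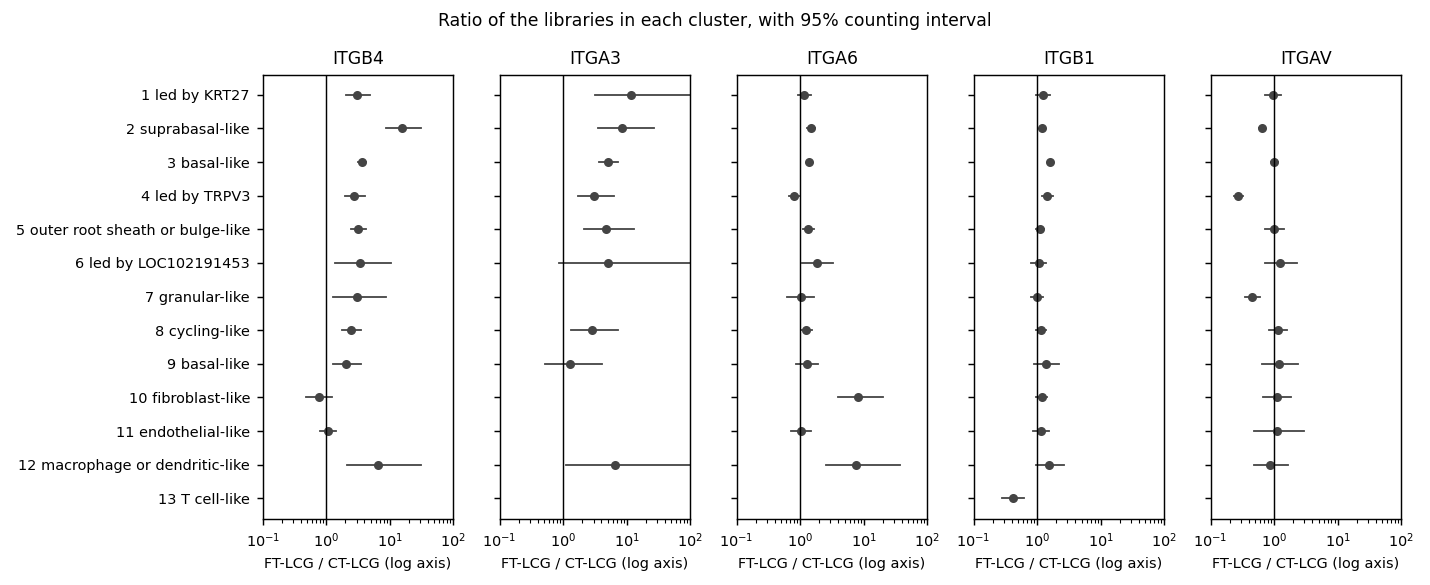
Ratio of the level in FT-LCG to that in CT-LCG (x axis, log scale, drawn up to 100) for 5 integrins in each ranked cluster with at least 20 UMIs (y axis), with exact 95% counting intervals. ITGB4 lay to the right of 1 in 10 of 12 clusters and ITGAV in none with its whole interval.

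In the macrophage-like or dendritic-like cells the hemidesmosome chains and the keratinocyte markers were both higher in FT-LCG. The ITGB4 level was 0.182 for CT-LCG and 1.17 for FT-LCG and the ITGA6 level 0.182 and 1.37, and the basal markers summed to 47.1 and 515 there. These groups held 32 and 94 cells, and the part of keratinocyte transcripts in these levels was not tested.

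The partner lists were compared between the basal-like cells of the libraries in the same way, beside the 9.57% of all genes called lower in CT-LCG and 8.63% called higher. Of 11 ligand genes counted 6 were lower and 0 higher, and the other 5 were not called. LAMA3 had levels of 0.519 in CT-LCG against 0.460, and LAMC1 had 0.119 in each. The lower genes included LAMB3 at 0.166 (0.123 to 0.219), COL4A2 at 0.239 and COL4A1 at 0.277. PLEC, at 0.445, was the 1 hemidesmosome gene called. Of 13 focal adhesion genes 4 were lower, with PARVA at 0.234 and TNS1 at 0.244. None of the 10 activators and adaptors was called in either direction. Of the latent TGF-beta genes, TGFB3 at 3.68 and TGFBR1 at 2.08 were higher in CT-LCG.

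Within the endothelial-like cells the ratio of CT-LCG over FT-LCG was 0.943 (0.710 to 1.24) for ITGB4, 0.973 (0.673 to 1.38) for ITGA6, 0.881 (0.663 to 1.16) for ITGB1 and 0.902 (0.337 to 2.07) for ITGAV. In the fibroblast-like cells the ratio of ITGA6 was 0.121 (0.0505 to 0.250), and that of ITGB1 was 0.850 (0.700 to 1.03).

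Over the 13 ranked clusters, the profiles of the 2 hemidesmosome chains were alike. ITGA6 and ITGB4 had a Pearson correlation of 0.939, the closest of the 21 pairs of members, followed by ITGA3 and ITGA6 at 0.851 and ITGA2 and ITGA3 at 0.820. ITGB1 and ITGA2 were least alike, at 0.107. Among 11732 genes the profile nearest to ITGB4 and to ITGA6 was that of CTNNAL1, at 0.973 and 0.962, and the third and second nearest were ITGA6 and ITGB4 themselves. The nearest to ITGA2 was TES at 0.912, to ITGAV UBE3A at 0.931, to ITGB1 C6H4orf48 at 0.967 and to ITGB6 MPP2 at 0.949. The points are clusters of the same 2 libraries that differ in depth, so these values describe the clusters.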

How the data were processed

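Single-cell RNA sequencing of skin from 2 goats was analysed. The matrix deposited by the authors holds raw UMI counts, 1 row per gene and barcode, from Cell Ranger (version 3.0.2 in the file header). A deposited table of another kind, the batch column, names the library of each of the 13051 kept cells of 17299 barcodes. The submitters' processing notes also name Seurat 3.1.1. The genome build is not given in the sources used here. GEO's labels do not say which sample is of which fibre type, so the libraries carry the names of that table. Of the features, 27103 matched a RefSeq gene table by identifier. No sequences or coordinates are given.

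Levels are summed UMIs per 10000 with exact Poisson intervals, ratios have exact conditional intervals and shares Clopper-Pearson intervals, all at 95% and for counting error only. A count of 0 was set to 3 counts. The libraries held 27890472 UMIs (CT-LCG, 729 to 172185 per cell) and 85400323 UMIs (FT-LCG, 630 to 190503). With 1 library per type, and compartments that are clusters of these same cells, the comparisons are descriptions without p-values.

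Cells were scaled to 10000 UMIs and log-transformed. From 2000 variable genes, without the integrins and pathway lists (77 genes), 10 principal components were corrected with Harmony, written in numpy 2.4.6, and clustered on 20 neighbours with leidenalg 0.10.2 at resolution 0.4, the lowest with at least 13 clusters. Of 14 clusters, 13 had at least 20 cells in each library. A name needed at least 3 markers with at least 10 UMIs each and a mean log2 fold of at least 1. At least 1 marker had to be among the 10 leading genes, with no other list holding more there. Ties went to the higher mean fold. These thresholds were carried over from earlier work on these data. Cluster 1, led by KRT27, had a median of 1085 and 1125 UMIs and was in no comparison of compartments. The same holds for clusters 4 and 6, which stayed unnamed. Clusters 1, 4 and 6 did enter the ratios of the libraries within each cluster and the correlations over clusters. No doublets were removed in the main analysis. The Scrublet caller of scanpy 1.11.5 marked 0 cells, so its calls were not used, and cells were removed by score in an alternative. For shares each cell was thinned to 1000 UMIs.

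The text gives all 7 integrins, and from each pathway list at most 3 genes called each way per comparison, and the values of 1 gene are not reported here. Likeness was Pearson's correlation of log2(level + 0.1) over 13 clusters among genes with at least 200 UMIs. The members and lists were chosen with earlier results of these data known. Tested on simulated data for basal against fibroblast, the 2-fold rule recovered 89.1% of 119 genes changed 4-fold and called 1.06% of unchanged genes. The simulated counts shared 1 profile in both libraries and had no spread between cells, so these rates cover counting error only. Alternatives covered the clustering, depth, free RNA, doublets, cell assignment, thresholds and each library alone.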

Additional observations from a re-analysis of the deposited data

Results flagged for a closer look

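ITGB4 ran in opposite directions between basal-like and fibroblast-like cells in the 2 libraries, with a ratio of 0.524 for CT-LCG against 2.34 for FT-LCG. The difference was not tested, since each fibre type has 1 library. In the CT-LCG fibroblast-like cells the 41 ITGB4 UMIs came from 28 of 104 cells, and in FT-LCG the 39 UMIs came from 21 of 127. In CT-LCG 19 of these cells, and in FT-LCG 43, had no UMI of COL1A1, COL1A2 or COL3A1. The part of such cells in the ITGB4 levels was not tested.

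ITGA2 stood at 2.75 UMIs per 10000 (interval 2.21 to 3.39, 88 UMIs in 28 of 64 cells) in cluster 14 of CT-LCG, a cluster that no comparison used because FT-LCG gave it only 18 cells. This level lies above that of ITGA2 in each ranked cluster. In FT-LCG the cluster held 2 UMIs of ITGA2, a level of 0.389 (0.0471 to 1.40). CPA3, a mast cell protease gene, was among its leading genes, with 371 and 44 UMIs, and KIT, a growth factor receptor of mast cells, had 270 and 36. The level of KRT14 there was 4.53 and 31.9, and ITGB4 had 0 and 1 UMIs.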

How the results depend on the processing

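The number of integrins called higher in basal-like than in suprabasal-like cells, 6, became 5 without Harmony, with means over cells or a minimum of 50 UMIs, and 3 with thinning to 1000 UMIs. For basal-like over fibroblast-like cells, 2 became 4 without Harmony, 1 with 20 principal components, cells of at least 1000 genes, means over cells, marker assignment, a minimum of 50 UMIs or no cluster 9, and 0 with thinning. By marker assignment the log2 ratios of ITGA2 and ITGA3 turned to -0.02 and -0.0003. For basal-like under endothelial-like cells, 1 became 0 at the higher resolution and 2 without Harmony, with 20 components, means, thinning, free RNA or doublets removed, marker assignment, a fold of 1.5 or keratin-poor cells. For basal-like over endothelial-like cells, 0 became 1 at a fold of 1.5 or in keratin-poor cells. For outer root sheath-like over basal-like cells, 1 became 0 without Harmony, at the higher resolution, with another seed, cells of at least 1000 genes, thinning or marker assignment, and 2 at a fold of 1.5. For endothelial-like over fibroblast-like cells, 1 became 2 with integrins allowed in the clustering, without Harmony or by marker assignment, and for endothelial-like under fibroblast-like cells 0 became 1 with means, free RNA removed or a fold of 1.5. For CT-LCG under FT-LCG, 3 became 1 without Harmony. A fold of 1.5 also added ITGB1, at 0.632, to that count. It added ITGB6, at 3.60 for CT-LCG and 1.59 for FT-LCG, to the count for basal-like over fibroblast-like cells. The causes were not tested.

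With each library alone the counts ran from 3 to 4 (basal-like over fibroblast-like), 1 to 2 (under endothelial-like), 0 to 3 (over endothelial-like), 1 to 2 (outer root sheath-like over basal-like) and 1 to 2 (endothelial-like over fibroblast-like). Leaving out CT-LCG gave the 3 of both, and leaving out FT-LCG gave the 4 and each 2. With 20 components no cluster was named outer root sheath-like, so its counts have no value there. The settings without cluster 9 and with keratin-poor cells were chosen after seeing the data. Depth limits ITGA2, ITGA3 and ITGB6 in dermal cells, where CT-LCG held 0 to 2 UMIs of each. No paired analysis was possible because each fibre type has 1 library and no result comes from a test.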
